A study of Mus musculus with 12 samples.

Results

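The genes described here encode the nuclear subunits of the mitochondrial respiratory chain and of ATP synthase. They were chosen by symbol from the table of expression levels: Ndufa, Ndufb, Ndufc, Ndufs and Ndufv genes for complex I, Sdha to Sdhd for complex II, the Uqcr genes and Cyc1 for complex III, Cox5, Cox6b, Cox6c, Cox7b and Cox7c genes for complex IV, and Atp5a to Atp5l genes for ATP synthase. Of 22276 gene symbols, 71 were members, with 36 for complex I, 4 for complex II, 9 for complex III, 8 for complex IV and 14 for ATP synthase. The rule leaves out Atp5o, Ndufab1 and the Cox4, Cox6a, Cox7a and Cox8 genes. No gene of the mitochondrial genome, which encodes the remaining subunits, was in the table.

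Complexes I and II pass electrons from NADH and succinate to ubiquinone, complex III passes them to cytochrome c, and complex IV passes them to oxygen. Complexes I, III and IV pump protons across the inner membrane, and ATP synthase lets the protons flow back through its ring of c subunits to make ATP. In brown fat, UCP1 lets protons return without ATP being made, and brown fat mitochondria are known for much respiratory chain and little ATP synthase.

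The mice were male C57BL/6J, 17 wk old when tissues were taken. NCD-veh mice ate normal chow and received vehicle, HFD-veh mice ate a high-fat diet (HFD) from 8 wk of age and received vehicle, and HFD-ncls mice ate the HFD and received narciclasine (ncls), a plant alkaloid. Gavage was weekly and began at 10 wk of age, with an ncls dose of 1 mg/kg. Total RNA of white fat (WAT), brown fat (BAT), liver and quadriceps muscle was sequenced as 12 libraries, 1 for each organ and group. The number of mice in a library is not stated. Where 3 values are given for an organ, their order is NCD-veh, then HFD-veh, then HFD-ncls.

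Levels are FPKM, the fragments per kilobase of transcript scaled to the fragments mapped, so each level is given per unit of length. Some members are short, with coding lengths of 159 bases for Atp5e, 249 for Uqcrq and 261 for Cox6b1. How well the scaling by length holds for them was not tested. With 1 library per organ and group there is no spread between replicates and no test. Ratios describe pairs of libraries, and the 3 libraries of an organ are 3 conditions and not replicates. In bulk tissue, fewer cells of a type and less RNA per cell cannot be told apart. Depth came to about 18600000 to 24600000 fragments per library by an approximate estimate from the steps between low values. The organ labels were checked against markers. Ucp1 was at 740 to 770 FPKM in BAT and at no more than 3.92 elsewhere, Adipoq was highest in the WAT libraries (1600 to 2849 FPKM), Ckm was at 15744 to 16456 FPKM in muscle, and 22 liver markers summed to 71056 to 85011 FPKM in liver. Muscle RNA was present in BAT, at an estimated 1.83%, 0.755% and 0.112% of the muscle level, and in HFD-veh liver, at 0.0618%. In HFD-veh liver this share would supply at most 0.212% of any member's level. Liver RNA was present in HFD-veh muscle, at 0.583% of the liver level.

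A level of at least 1 FPKM in all 12 libraries was found for 69 of the 71 genes. The exceptions were Cox6b2 and Cox7b2, isoforms of complex IV subunits known from testis. Cox7b2 was listed at 0 in 11 libraries and at 0.108 FPKM in HFD-veh BAT. Cox6b2 was at 11.98, 13.6 and 16.1 FPKM in BAT, and at 6.42, 3.15 and 3.62 FPKM in WAT. It was at 1.67, 0.588 and 0.465 FPKM in liver and at 0.318, 0.410 and 0.415 FPKM in muscle. No library of WAT or BAT held testis or epididymis transcripts above 0.101 FPKM in sum over 12 markers. The highest means over the 12 libraries were those of Atp5b, the catalytic β subunit of ATP synthase (1014 FPKM), Cox6b1, which joins the monomers of complex IV (855 FPKM), and Uqcrq, a small subunit of complex III (821 FPKM). Ndufa11, an accessory subunit of complex I, had the lowest mean after the testis isoforms, 21.3 FPKM.

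BAT carried the highest levels of most of the 71 genes. The 71 genes together made up 13.1%, 13.5% and 14.2% of the summed FPKM of the BAT libraries, against 4.49% to 4.71% in muscle, 1.97% to 2.45% in liver and 2.09% to 2.31% in WAT. Alb had no value in the liver libraries, so the liver shares were taken without it and are higher than with it counted. All 3 BAT libraries lay above the 9 libraries of the other organs for 65 of 71 genes, and of 13648 genes in all, 6.16% did so. These 65 included all 36 genes of complex I, all 4 of complex II, all 9 of complex III and 7 of 8 of complex IV, but 9 of 14 of ATP synthase. WAT was at the other end, with its 3 libraries below the other 9 for 43 of 71 genes, against 1.96% of all genes.

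Cox5a and Cox5b, which are nuclear subunits near the core of complex IV, and Cyc1, the cytochrome c1 of complex III, were among the genes with the widest range between organs. Cox5a was at 515, 525 and 530 FPKM in BAT, and at 59.7, 69.1 and 64.0 FPKM in WAT. In liver it was at 122, 138 and 157 FPKM and in muscle at 337, 316 and 313 FPKM. The 4 organs did not overlap for Cox5a, and the order was BAT, muscle, liver, WAT. The mean of BAT over WAT was 8.14 for Cox5a, 7.91 for Cox5b, 7.62 for Uqcrq and 7.62 for Cyc1. Uqcrq differed from the rest in that liver (749, 782 and 891 FPKM) lay above muscle (515, 514 and 494 FPKM). Among core subunits of complex I, Ndufv1, which binds NADH, was at 270 to 308 FPKM in BAT and 104 to 110 FPKM in muscle, while Ndufs1, the largest iron-sulphur subunit, was at 95.4 to 98.5 FPKM in BAT and 81.9 to 89.4 FPKM in muscle.

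**Figure D1:**
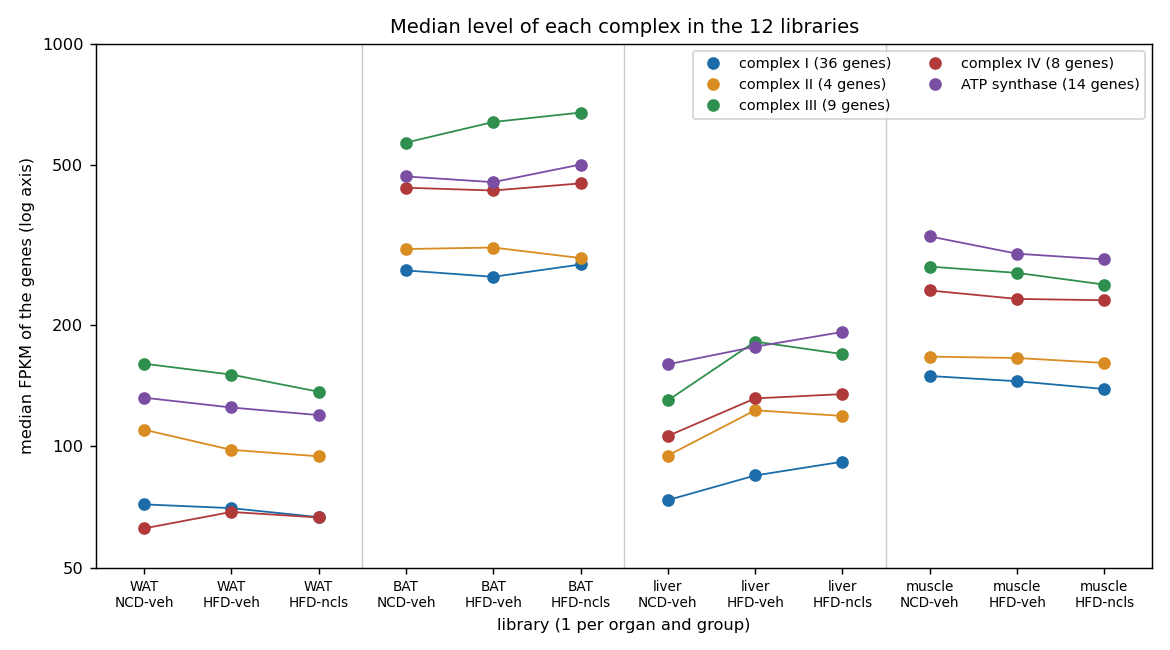
Median FPKM (log axis) of the genes of each complex in the 12 libraries, with 1 point per complex and library and lines joining the 3 groups of an organ. BAT lies highest for all 5 complexes, and complex I runs from 66.7 FPKM in HFD-ncls WAT to 283 FPKM in HFD-ncls BAT.

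On log2(FPKM + 0.1), with the 3 libraries of each organ averaged, the median over 70 genes of BAT against WAT was 2.11, or 4.32-fold. All 3 BAT libraries were above the 3 of WAT for 68 genes, against 12.5% of all genes, and the median over all genes was -1.02. BAT against muscle had a median of 0.98, or 1.97-fold, with 65 of 70 genes above and 48.4% of all genes above, at a median of 0.26 over all genes. Against liver the median was 1.72 (3.29-fold), with 67 of 70 genes above, 40.4% of all genes above and a median of 0.07 over all genes. Muscle exceeded liver by a median of 0.61 (1.53-fold), with 57 of 70 genes above, against 37.2% of all genes at a median of -0.16. These values moved with the scaling between organs. Rescaling by the median ratio of all genes gave 3.13 for BAT against WAT, 0.71 for BAT against muscle and 0.77 for muscle against liver, all in the same direction.

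The excess in BAT was not equal between complexes. Against muscle, the median was 1.61 for complex IV, 1.34 for complex III, 1.14 for complex II, 0.85 for complex I and 0.59 for ATP synthase on the log2 scale. Ndufa4, placed in complex I by its symbol, is known as a subunit of complex IV, and counting it there gave 1.46 for complex IV. With the mean level of each complex divided by that of complex I in the same library, complex IV was at 1.91 to 1.96 in BAT and 1.27 to 1.51 in the other 9 libraries. ATP synthase was at 1.46, 1.54 and 1.504 times complex I in BAT and at 1.77 to 1.92 times in the other 9 libraries. For these genes, BAT thus lay apart from the other organs in both ratios without overlap, higher for complex IV and lower for ATP synthase. The complex IV set leaves out the Cox4, Cox6a, Cox7a and Cox8 genes, and the ratio with them was not computed. Among these, Cox6a2 was at 1520 to 1598 FPKM in muscle and 2.18 to 38.3 FPKM in BAT. Cox7a1 was at 1546 FPKM in NCD-veh BAT and 2239 FPKM in HFD-ncls BAT. For ATP synthase the gap rested on the 3 genes of subunit c. Without them the ratio was 1.76, 1.85 and 1.83 in BAT and 1.85 to 2.06 in the other libraries, a gap of 0.0019 to HFD-veh muscle, and the genes of the F1 head alone overlapped (2.38 to 2.59 in BAT, 2.51 to 2.94 elsewhere). These ratios are taken within a library and do not depend on scaling between libraries.

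**Figure D2:**
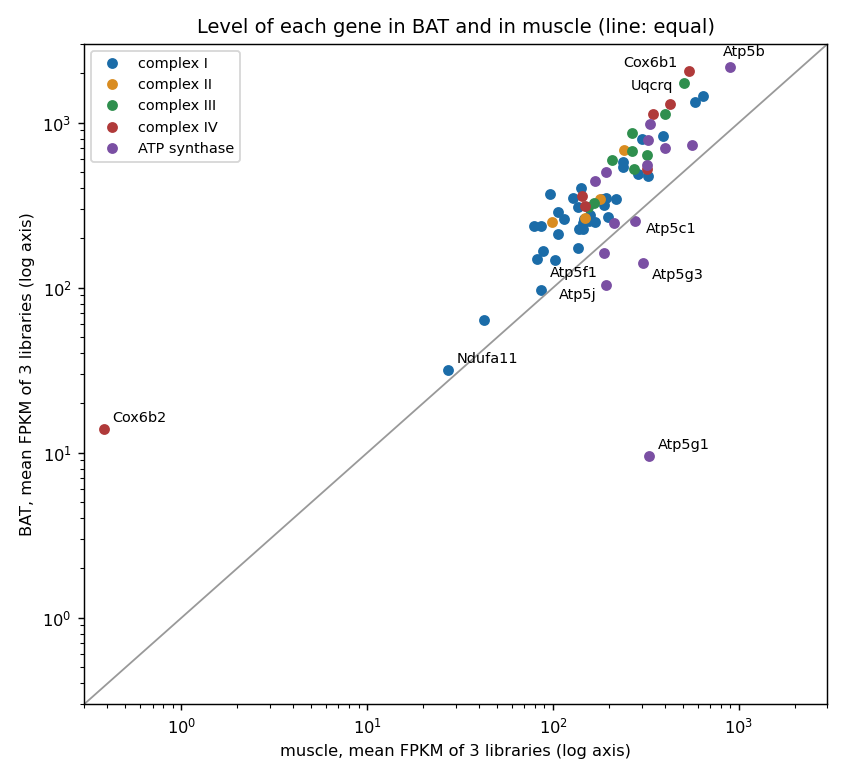
Mean FPKM in BAT against mean FPKM in muscle (both log axes, 3 libraries each), with 1 point per gene coloured by complex. Cox7b2 is not drawn, the line marks equal levels, and the 5 genes below it are Atp5g1, Atp5g3, Atp5j, Atp5f1 and Atp5c1, all of ATP synthase.

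Beside Cox7b2, the genes for which BAT was not highest in all comparisons were 5 genes of ATP synthase. Atp5c1 encodes the γ subunit, the rotating shaft of the F1 head, and Atp5f1 and Atp5j encode subunits b and F6 of the stalk that holds the head still. Atp5c1 was at 256, 250 and 260 FPKM in BAT and at 278, 280 and 267 FPKM in muscle. Atp5f1 was at 168, 157 and 160 FPKM in BAT and at 203, 177 and 181 FPKM in muscle. For Atp5c1 and Atp5f1 the 2 organs lay close, with BAT at 0.93 and 0.86 of the muscle mean. Atp5j was at 110, 102 and 101 FPKM in BAT and at 196, 200 and 182 FPKM in muscle, with liver (106, 127 and 130 FPKM) overlapping BAT. Other subunits of the same head and stalk followed most of the members. Atp5b was at 1968, 2159 and 2397 FPKM in BAT and at 853 to 954 FPKM in muscle, and the α subunit gene Atp5a1 was at 713 to 754 FPKM in BAT and 535 to 608 FPKM in muscle.

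The other genes were those of subunit c, which forms the rotating proton ring. Atp5g1, Atp5g2 and Atp5g3 encode the same mature protein with different targeting peptides. Atp5g1 was at 12.1, 10.96 and 5.63 FPKM in BAT and at 26.1, 27.5 and 28.6 FPKM in WAT. In liver it was at 149, 147 and 169 FPKM, and in muscle at 364, 307 and 312 FPKM. The organs did not overlap, BAT was lowest, and the highest organ mean was 34.3 times the lowest, the widest range among the 69 genes at 1 FPKM or more in all libraries. Atp5g3 was at 133, 156 and 135 FPKM in BAT, 160, 180 and 170 FPKM in WAT, 275, 337 and 387 FPKM in liver and 335, 296 and 283 FPKM in muscle. Here BAT was again lowest, while liver and muscle overlapped. Atp5g2 was at 276, 237 and 228 FPKM in BAT and 109, 98.6 and 104 FPKM in WAT, with liver at 127, 135 and 156 FPKM and muscle at 215, 217 and 205 FPKM. Atp5g2 was thus highest in BAT, as most members were, and its BAT mean was 1.16 times that of muscle.

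The sum of the 3 genes over Atp5b was 0.214, 0.187 and 0.154 in BAT. It was 0.536, 0.572 and 0.617 in WAT, 0.958, 0.961 and 0.908 in muscle and 1.36, 1.32 and 1.396 in liver. The organs did not overlap in this ratio. Of the sum, Atp5g1 supplied 1.53% to 2.86% in BAT, 8.81% to 9.48% in WAT, 23.7% to 27.0% in liver and 37.4% to 39.9% in muscle.

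**Figure D3:**
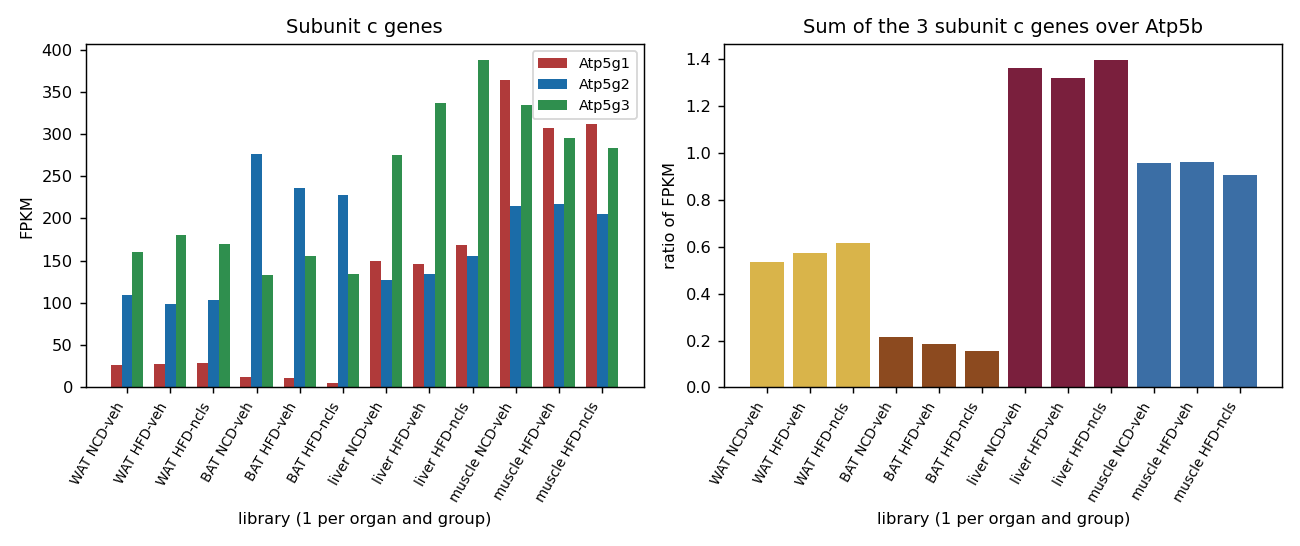
Left, FPKM of Atp5g1, Atp5g2 and Atp5g3 in each of the 12 libraries. Right, the sum of the 3 genes divided by Atp5b in the same library, which is lowest in the 3 BAT libraries (0.154 to 0.214) and highest in the 3 liver libraries (1.32 to 1.396).

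The promoters of the 3 subunit c genes are shown because the genes share a product and differ in their pattern between organs. The sequences are those of RefSeq on GRCm38.p6, from 250 bases before to 50 bases after the annotated start, 5′ to 3′ on the minus strand, at chr11:96075582-96075881 for Atp5g1, chr15:102670998-102671297 for Atp5g2 and chr2:73911277-73911576 for Atp5g3. Capitals mark matches on either strand to GCGCNTGCG, the core of the motif of NRF1, an activator of respiratory chain genes, to CCGGAAG, the motif of ETS factors such as GABP (NRF2), and to the CCAAT box.
Atp5g1: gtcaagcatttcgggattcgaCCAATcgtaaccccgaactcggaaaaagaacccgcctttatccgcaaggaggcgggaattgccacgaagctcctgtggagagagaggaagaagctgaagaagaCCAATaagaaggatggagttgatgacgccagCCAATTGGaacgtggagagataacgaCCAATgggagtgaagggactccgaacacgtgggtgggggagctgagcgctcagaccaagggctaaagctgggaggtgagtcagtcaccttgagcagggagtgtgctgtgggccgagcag
Atp5g2: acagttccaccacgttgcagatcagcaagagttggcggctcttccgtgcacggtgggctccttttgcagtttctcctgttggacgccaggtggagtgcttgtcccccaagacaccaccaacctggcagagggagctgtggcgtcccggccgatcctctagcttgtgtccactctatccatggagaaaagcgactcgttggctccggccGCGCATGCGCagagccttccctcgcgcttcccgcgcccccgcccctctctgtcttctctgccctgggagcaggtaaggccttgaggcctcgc
Atp5g3: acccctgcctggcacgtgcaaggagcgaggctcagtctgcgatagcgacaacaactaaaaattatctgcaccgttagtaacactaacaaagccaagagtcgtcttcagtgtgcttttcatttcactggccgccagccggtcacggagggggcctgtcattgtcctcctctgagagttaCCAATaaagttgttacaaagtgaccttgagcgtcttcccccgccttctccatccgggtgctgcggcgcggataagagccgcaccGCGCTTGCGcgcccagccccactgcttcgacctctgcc

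Atp5g1 held 5 CCAAT boxes on the 2 strands, 2 of them overlapping, and no NRF1 match in this window. Atp5g2 held 2 NRF1 matches, which overlap on opposite strands, and Atp5g3 held 1 NRF1 match and 1 CCAAT box. A promoter was matched for 60 of the 71 genes. The NRF1 motif was in 21 of these (35%) and in 7.12% of all 27025 genes with a promoter sequence. A gene counted if any of its promoters matched, and the 27025 genes were not filtered by level, unlike most members. The ETS motif was in 14 members (23.3%) and in 9.93% of the 27025 genes, and the CCAAT box in 26 (43.3%) and in 41.1%. A match describes letters only, and binding was not measured.

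The subunit c genes have processed copies in the genome, which bears on how fragments could be assigned. In mm9, the build used for the alignment, Atp5g1 lies at chr11:95930166-95936984, Atp5g2 at chr15:102493299-102501478 and Atp5g3 at chr2:73746504-73749383, all on the minus strand. Of the 362 windows of 50 bases in the coding sequence of Atp5g1, 361 have an exact copy elsewhere in mm9, 335 of them in the pseudogene Gm10039 at chr11:100222932-100223465. For Atp5g2 all 392 windows are copied, in Gm10175 on chromosome 7 and Gm10231 on chromosome 17, and for Atp5g3 none of 377. Neither Gm10039, Gm10175 nor Gm10231 has an entry in the expression table. Their part in the levels of Atp5g1 and Atp5g2 was not tested. Copies elsewhere were also found for 49.9% of the windows of Atp5f1 and 70.7% of those of Cox5b. These were not the only ones. All windows of Atp5l, Ndufb4 and Cox7c and 69.6% of those of Atp5h were copied, while other members, such as Atp5a1 and Cox6b1, had no copied window.

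Muscle RNA in BAT also bears on Atp5g1, the gene with the highest ratio of muscle to BAT. The estimated muscle share would supply 55.1%, 21.1% and 6.22% of its level in the BAT libraries, and at most 4.59% for Atp5g3. With this share subtracted, Atp5g1 in BAT was at 5.42, 8.65 and 5.28 FPKM, still below the other organs in all 3 libraries.

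In liver, the median of the members of each of the 5 complexes was higher on the HFD. Against NCD-veh, the median log2 ratio of HFD-veh over 70 genes was 0.17, beside 0.04 over all 10016 genes tested, and 57 of 70 genes were higher, beside 54% of all genes. Over 1.4-fold higher were 6 genes, beside 13.3% of all genes, and over 1.4-fold lower was 1 gene, beside 10.5%. The shift was therefore small and broad. The counts past 1.4-fold were not set against genes of a like level. Complex II, which is also an enzyme of the TCA cycle, had the highest median, 0.44, followed by ATP synthase (0.21), complex I (0.16), complex IV (0.15) and complex III (0.15).

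**Figure D4:**
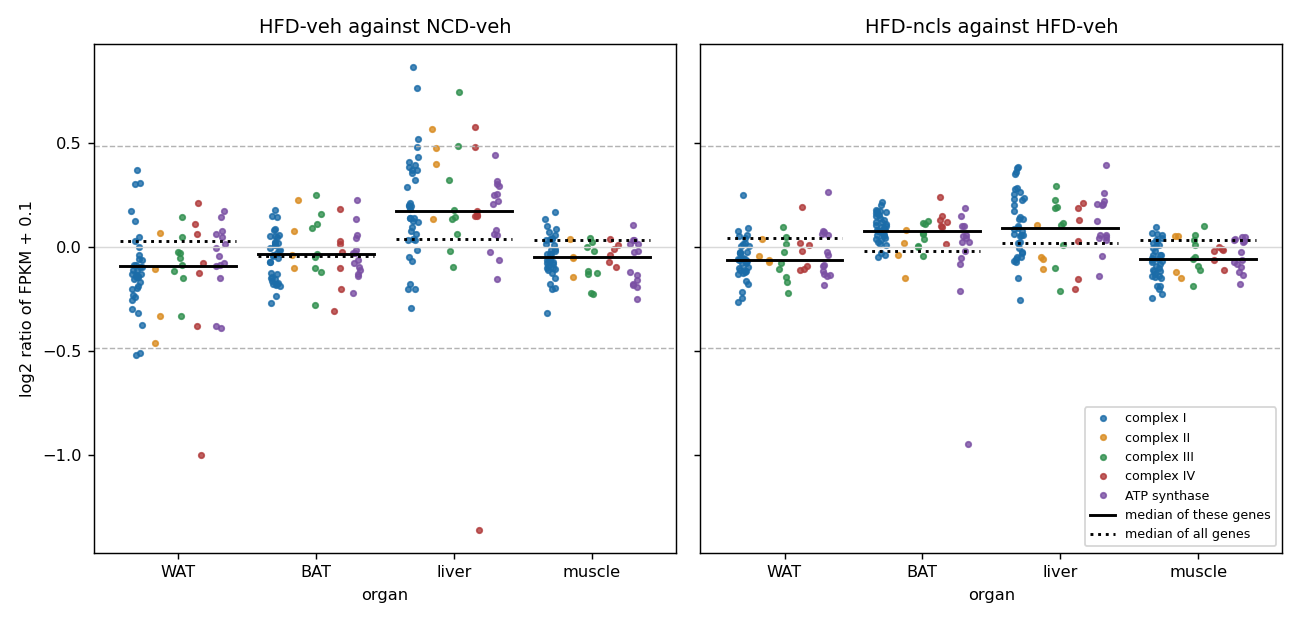
Log2 ratio of FPKM + 0.1 for each gene (points, coloured by complex) in the 4 organs, for HFD-veh against NCD-veh (left) and HFD-ncls against HFD-veh (right). Solid lines mark the median of these genes, dotted lines that of all genes and dashed lines 1.4-fold, and the liver median is 0.17 on the left and 0.09 on the right.

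Ndufs1 was at 20.0 FPKM in NCD-veh liver, 36.5 FPKM in HFD-veh and 30.6 FPKM in HFD-ncls, a log2 ratio of 0.87 for the diet. Ndufs5, an accessory subunit of complex I, was at 32.4, 55.2 and 55.9 FPKM (0.77), although 72.8% of its coding windows have a copy elsewhere in the genome. Uqcrc2, a core protein of complex III, was at 65.2, 109 and 94.4 FPKM (0.75). In these 3 genes both HFD libraries lay above NCD-veh. The other genes over 1.4-fold higher in HFD-veh were Cox7b, a small subunit of complex IV (67.3, 101 and 87.4 FPKM), Sdha (86.5, 128 and 119 FPKM) and Ndufb3, of the membrane arm of complex I (43.7, 62.6 and 66.7 FPKM). Sdha binds the flavin of complex II and Sdhb carries its iron-sulphur clusters. Sdhb was at 138, 192 and 186 FPKM, Sdhc at 101, 111 and 119 FPKM and Sdhd at 89.2, 118 and 113 FPKM, so all 4 genes of complex II were higher in both HFD libraries than in NCD-veh. The gene over 1.4-fold lower was Cox6b2, at 1.67 FPKM in NCD-veh. Ndufv3, an accessory subunit beside the NADH site, had the lowest ratio among the others, -0.29, from 241 to 197 FPKM.

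Between HFD-ncls and HFD-veh liver, the median over 69 genes was 0.09, beside 0.02 over all genes, and 50 of 69 genes were higher, beside 52.4% of all genes. No gene passed 1.4-fold in either direction, beside 6.88% higher and 8.07% lower among all genes. The highest ratios were those of Atp5d, the δ subunit of the F1 head (273 to 359 FPKM, 0.40), and Ndufb7, of the membrane arm of complex I (131 to 171 FPKM, 0.38). The lowest were those of Ndufs1 (-0.26) and Uqcrc2 (-0.21). The median was 0.12 for complex III and -0.05 for complex II, with 1 of 4 complex II genes higher. All 3 subunit c genes were higher in HFD-ncls, by 0.20 to 0.21.

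Both comparisons share the HFD-veh library. The order of the 3 liver libraries was also counted over genes, and it uses that library too. The level was lowest in NCD-veh for 56 of 70 genes, beside 40.9% of all genes, and highest in HFD-ncls for 49 of 70, beside 34.2%. It increased from NCD-veh through HFD-veh to HFD-ncls for 38 of 70 genes, beside 19.1%. HFD-ncls against NCD-veh had a median of 0.30, beside 0.05 for all genes, with 67 of 70 genes higher, beside 56%. Cox6b2 alone was over 1.4-fold lower, beside 9.46%. Over 1.4-fold higher were 6 genes, beside 11.5% of all genes, among them Atp5g3 (275 to 387 FPKM, 0.49) and Atp5k, a small membrane subunit of ATP synthase (127 to 181 FPKM, 0.51). Uqcrc1, Uqcrfs1, Cyc1, Cox5a, Cox5b and Atp5b were 0.33 to 0.44 higher. The summed FPKM of the 22 liver markers was 85011, 71056 and 77507, and its part in these ratios was not tested.

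Other mitochondrial genes in liver were read from lists. Of 18 TCA cycle and pyruvate dehydrogenase genes, 17 were higher in HFD-veh than in NCD-veh, beside 54% of all genes, and 10 were over 1.4-fold higher, beside 13.3%, with a median of 0.50. The highest ratios were those of Pdhb (29.1 to 60.2 FPKM, 1.05), Dld (23.6 to 44.3 FPKM, 0.90) and Pdhx (4.41 to 8.29 FPKM, 0.90), all of the pyruvate dehydrogenase complex. Of 40 assembly factors, which build the complexes but are not part of them, 33 were higher, beside the same 54%, and 10 were over 1.4-fold higher, beside 13.3%, with a median of 0.25. The highest were Lyrm7 (0.536 to 1.06 FPKM, 0.86), Acad9 (3.62 to 6.26 FPKM, 0.78) and Ndufaf4 (5.49 to 9.16 FPKM, 0.73). Sco2, a copper chaperone for complex IV, went the other way, at 62.6, 23.7 and 21.3 FPKM (-1.39 for the diet). The 73 mitochondrial ribosomal protein genes had a median of 0.17. Of the cytochrome oxidase isoforms outside the rule, which are also subunits of complex IV, 2 of 6 tested were higher, beside the same 54%. Their median was -0.04, with a range from -0.18 for Cox4i1 to 0.45 for Cox7a2. Cycs, the cytochrome c between complexes III and IV, was at 13.1, 23.1 and 21.2 FPKM. Between HFD-ncls and HFD-veh liver the medians were 0.01 for the TCA cycle list, -0.06 for assembly factors and 0.11 for mitochondrial ribosomal proteins.

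**Figure D5:**
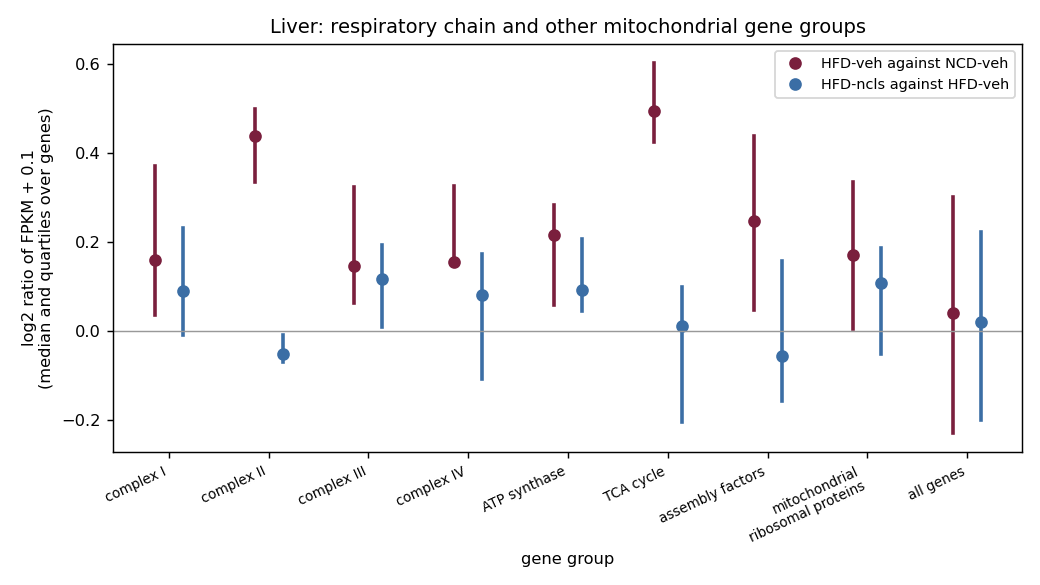
Liver, median (points) and quartiles (bars) over genes of the log2 ratio of FPKM + 0.1, for the 5 complexes, 3 other mitochondrial gene groups and all genes, with 1 library per group. The TCA cycle group and complex II lie highest for the diet (0.50 and 0.44), and both lie near 0 for ncls (0.01 and -0.05).

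Among 17 regulators of mitochondrial genes, 15 were tested in liver. For HFD-veh against NCD-veh their median was -0.18, beside 0.04 over all genes, and 6 of 15 were higher, beside 54%. Over 1.4-fold higher were 3 of 15, beside 13.3% of all genes. These were Pparg, a lipid-activated nuclear receptor (2.81 to 7.47 FPKM, 1.38), Ppara, its relative that governs fatty acid oxidation (34.3 to 52.4 FPKM, 0.61), and Gabpa, an ETS factor (5.0 to 7.64 FPKM, 0.60). Gabpb1, the partner of Gabpa, was at 3.39 FPKM in NCD-veh and 2.32 FPKM in HFD-veh (-0.53). Between HFD-ncls and HFD-veh, Gabpa (7.64 to 5.21 FPKM, -0.54) and Ppara (52.4 to 36.9 FPKM, -0.50) were over 1.4-fold lower, beside 8.07% of all genes. The coactivator Pprc1 (2.09 to 3.62 FPKM, 0.76), Ppard, another receptor of the family (2.45 to 3.70 FPKM, 0.58), and Esrra, a nuclear receptor that drives respiratory chain genes (10.0 to 14.2 FPKM, 0.50), were over 1.4-fold higher, beside 6.88%. Nrf1 itself was at 2.42, 2.07 and 1.73 FPKM in the 3 liver libraries.

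In WAT, the genes were slightly lower on the HFD. The median of HFD-veh against NCD-veh was -0.09 over 70 genes, beside 0.03 over all 12208 genes, and 20 of 70 genes were higher, beside 52.7% of all genes. No gene was over 1.4-fold higher, beside 16.3% of all genes, and 3 were over 1.4-fold lower, beside 13%. These were Cox6b2 (6.42 to 3.15 FPKM, -1.004), Ndufa7, of the NADH module of complex I (109 to 76.0 FPKM, -0.52), and Ndufa5, of its quinone module (51.9 to 36.4 FPKM, -0.51). The 10 genes of the NADH module were all lower, with a median of -0.14. Sdha was at 139, 101 and 96.7 FPKM and Sdhb at 120, 95.3 and 92.4 FPKM, while Sdhc was at 100.2, 105 and 99.7 FPKM. Complex II had the lowest median, -0.22. Ndufa8, an accessory subunit of complex I, had the highest ratio, 0.37, from 69.5 to 89.9 FPKM, followed by Ndufa11 (9.54 to 11.8 FPKM, 0.31).

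HFD-ncls against HFD-veh WAT had a median of -0.06, beside 0.04 over all genes, with 22 of 70 genes higher, beside 58.5%. No gene passed 1.4-fold, beside 6.39% higher and 1.28% lower among all genes. The lowest ratios were those of Ndufs1 (34.0 to 28.3 FPKM, -0.26) and Ndufs6, a zinc-binding subunit of complex I (46.7 to 39.4 FPKM, -0.24), and the highest were those of Atp5k (82.9 to 99.6 FPKM, 0.26) and Ndufa7 (76.0 to 90.4 FPKM, 0.25). The level was highest in NCD-veh for 49 of 70 genes, beside 37% of all genes, and lowest in HFD-ncls for 40, beside 21.4%. Across NCD-veh, HFD-veh and HFD-ncls it decreased step by step for 34 of 70 genes, beside 15.6%. HFD-ncls against NCD-veh had a median of -0.17, with 15 of 70 genes higher, beside 57.1%, and none over 1.4-fold higher, beside 19.8%. Over 1.4-fold lower were 4 genes, beside 10.4% of all genes, namely Cox6b2 (-0.81), Uqcrc2 (87.8 to 59.7 FPKM, -0.56), Sdha (-0.53) and Ndufa5 (-0.50).

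The RNA of other cell types in WAT moved in the same libraries. The summed FPKM of 8 adipocyte markers was 27159, 19259 and 17650, and none of them was at 0. The summed FPKM of 11 macrophage markers was 711, 1090 and 1374, none at 0. Transcripts of seminal vesicle were present in NCD-veh WAT, where 7 secretory genes (Svs1 to Svs6), chosen after their values were seen, summed to 72.1 FPKM, against 0.131 and 0.0497 FPKM in the HFD libraries. Liver RNA was estimated at no more than 0.244% of the liver level in WAT and would supply at most 1.44% of any member's level. The part of seminal vesicle RNA and of cell types in the WAT ratios was not tested. Of the cytochrome oxidase isoforms outside the rule, 4 of 9 tested were over 1.4-fold higher in HFD-veh than in NCD-veh WAT, beside 16.3% of all genes: Cox8b (26.1 to 60.4 FPKM, 1.21) and Cox7a1 (9.16 to 17.5 FPKM, 0.92), forms of muscle and brown fat, Cox6a2, the muscle form (0.289 to 2.49 FPKM, 2.73), and Cox4i2, a form known from lung (1.76 to 5.51 FPKM, 1.59). Brown adipocyte markers, 9 in number, summed to 17.3, 32.1 and 32.9 FPKM in the same libraries, with 1, 1 and 2 of them at 0. Ucp1 was at 2.86, 2.38 and 3.92 FPKM there. The same 9 markers also summed to 511, 214 and 535 FPKM in muscle, so the sum is not particular to brown fat. The part of brown adipocyte RNA in the WAT ratios of these isoforms was not tested. Of 15 regulators tested for the diet, 1 was over 1.4-fold higher, beside 16.3%, and 1 lower, beside 13%. Pprc1 was at 3.98 FPKM in NCD-veh and 6.43 FPKM in HFD-veh (0.68), and Ppargc1a, the coactivator of mitochondrial biogenesis, at 1.03, 0.583 and 0.751 FPKM.

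In BAT, the diet moved the genes little. The median of HFD-veh against NCD-veh was -0.03 over 70 genes, beside -0.04 over all 10444 genes, with 27 of 70 genes higher, beside 44.7%. None passed 1.4-fold, beside 9.34% higher and 8.23% lower among all genes. Ratios ran from -0.31 for Cox7c, a small subunit of complex IV (352 to 284 FPKM), and -0.28 for Uqcr10, of complex III (1245 to 1026 FPKM), to 0.23 for Sdhb (603 to 706 FPKM) and 0.25 for Uqcrc1, a core protein of complex III (569 to 677 FPKM). All coding windows of Cox7c have a copy elsewhere in the genome.

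HFD-ncls against HFD-veh BAT had a median of 0.08, beside -0.02 over all 10331 genes, and 58 of 70 genes were higher, beside 46% of all genes. Of complex I, 33 of 36 genes were higher, and of complex IV all 7 tested. None was over 1.4-fold higher, beside 2.25% of all genes, and 1 was over 1.4-fold lower, beside 6.28%. This gene was Atp5g1, from 10.96 to 5.63 FPKM (-0.95). With the muscle share subtracted its ratio was -0.70. The 2 other subunit c genes were also lower, at -0.21 for Atp5g3 and -0.05 for Atp5g2, whereas Atp5b was higher, at 0.15. The highest ratios were those of Cox6b2 (13.6 to 16.1 FPKM, 0.24) and Ndufa5 (226 to 263 FPKM, 0.22). The level was highest in HFD-ncls for 41 of 70 genes, beside 23.8% of all genes.

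The fast-twitch markers in BAT summed to 2124, 840 and 162 FPKM, over 12 markers of which none was at 0. The estimated muscle share would supply a median of 0.950%, 0.391% and 0.0538% of the level of the 71 genes, so Atp5g1 apart the subtraction was small. Cox6a2, the muscle isoform outside the rule, was at 38.3, 22.9 and 2.18 FPKM in BAT and at 1520 to 1598 FPKM in muscle. The 9 brown adipocyte markers summed to 2826, 2527 and 2575 FPKM.

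In muscle, no gene passed 1.4-fold for the diet, beside 7.74% higher and 5.52% lower among all genes, or for ncls, beside 8.46% and 5.48%. The lowest ratios for the diet were those of Ndufs4, a subunit that stabilises the NADH module (48.1 to 38.6 FPKM, -0.32), and Atp5g1 (364 to 307 FPKM, -0.25). The highest were those of Ndufa3 (563 to 632 FPKM, 0.17) and Ndufb2 (130 to 143 FPKM, 0.13), accessory subunits of complex I. For ncls the lowest were those of Ndufa2, of the NADH module (113 to 95.2 FPKM, -0.25), and Ndufc1, of the membrane arm (196 to 167 FPKM, -0.23), and the highest was that of Uqcrc1 (295 to 317 FPKM, 0.10). The level was highest in NCD-veh for 46 of 69 genes, beside 22% of all genes, and lowest in HFD-ncls for 44, beside 23.8%. The liver share in HFD-veh muscle would supply at most 0.887% of the level of any of these genes, that of Uqcrq.

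Outside the rule, Atp5o, the subunit that joins stalk and head of ATP synthase, was at 389 to 414 FPKM in BAT, 271 to 292 FPKM in muscle, 121 to 125 FPKM in liver and 115 to 124 FPKM in WAT, and so followed the order of most members. Atpif1, the inhibitor of ATP synthase, was at 83.6, 98.1 and 109 FPKM in WAT and at 23.4 to 38.9 FPKM in the other 9 libraries. WAT, lowest for most subunits, was thus highest for this inhibitor.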

How the data were processed

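RNA from 4 organs and 3 groups was sequenced as 12 libraries. Alignment by the authors used TopHat and the mm9 build, Cufflinks gave the deposited FPKM of each RefSeq gene, and no scaling between libraries is stated. Groups followed the sample labels, and columns mapped to no sample numbered 0.

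Python 3.11.15 with numpy 2.4.6, pandas 2.3.3 and matplotlib 3.10.9 was used. Log2 ratios had a pseudocount of 0.1 and kept genes reaching 1 FPKM in either library (for organs, in any of the 6), which understates the ratios of low genes. FPKM is no count, so no count test was run, and 1 library per group allowed no p-value. The threshold of 1.4-fold is one the study used. Counts over all genes used the same filters, with 1 exception. The organ counts out of 71 members kept Cox7b2, which never reached 1 FPKM. The shares of all genes beside them used genes reaching 1 FPKM in any of the 12 libraries. The muscle or liver share of a library was the median over marker genes of its level divided by that in the source organ of the same group. Coding windows were searched in mm9. Promoters came from GRCm38.p6.

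Genes, lists and thresholds were chosen with earlier results of these data known. Named were the 2 highest and 2 lowest ratios of each comparison, 14 core genes, genes under 1 FPKM in a library, the 3 highest and 3 lowest means, the 5 widest organ ranges and, of other lists, genes past 1.4-fold or the 3 highest, given for liver and, for isoforms and regulators, for the diet in WAT. Other genes were named after their values were seen, and a gene that the rule names for muscle is not reported here. Alternatives covered pseudocount, filter, rescaling, left-out groups and subtraction of other organs' RNA.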

Additional observations from a re-analysis of the deposited data

Results flagged for a closer look

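The direction of the median differed between organs for the same contrast, without a test of the difference, since each organ had 1 library per group. For HFD-veh against NCD-veh the median log2 ratio was -0.0938 in WAT and 0.174 in liver. For HFD-ncls against HFD-veh it was -0.0609 in WAT and -0.0566 in muscle, and 0.0786 in BAT and 0.0916 in liver.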

How the results depend on the processing

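Recomputed under changed settings were the medians and counts past 1.4-fold for HFD-veh against NCD-veh and HFD-ncls against HFD-veh, and the organ medians over members. Of these, 135 values kept their direction and stayed within 0.05 on the log2 scale or, for counts, within 1.5 times, 16 moved further and 1 reversed. Within 0.05, rescaling still took the ncls median from -0.0609 to -0.1025 in WAT and from -0.0566 to -0.0919 in muscle, and the diet median in muscle from -0.047 to -0.0796. The diet count became 4 in place of 3 in WAT with rescaling, and 6 to 8 in place of 7 in liver. HFD-ncls against NCD-veh, the order of libraries and the list medians were not recomputed. The median for the diet in BAT was -0.03 and became 0.01 (0.0105) with rescaling by the median ratio. The count past 1.4-fold for the diet in BAT went from 0 to 1 without the filter (Cox7b2) and to 1 after subtraction of muscle RNA (Atp5g1, 0.66), and that for ncls in BAT went from 1 to 2 without the filter. The median of BAT against WAT, 2.11, became 3.13 with rescaling, 2.18 without the NCD-veh libraries and 2.55 as shares of summed FPKM, a scaling chosen after seeing the data. BAT against liver, 1.72, became 1.65 with rescaling, 1.59 without the NCD-veh libraries, 1.77 without the HFD-veh libraries and 2.66 as shares of summed FPKM. BAT against muscle, 0.98, became 0.71 with rescaling and 1.45 as shares of summed FPKM. Muscle against liver, 0.61, became 0.77 with rescaling, 0.54 without the NCD-veh libraries, 0.71 without the HFD-ncls libraries and 1.08 as shares of summed FPKM. The summed FPKM of liver leaves out Alb, which had no value there. The gap between BAT and the other libraries in ATP synthase over complex I, 0.236, became -0.0811 with the F1 genes alone, a set chosen after seeing the data. Medians of single complexes between organs kept their direction. The cause of these moves was not tested beyond what each setting changes. No paired analysis was possible because each organ and group has 1 library and the labels give no replicate numbers. Ratios under 1.4-fold cannot be set against a spread between animals, and depth was known only approximately.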
